A study of Mus musculus with 18 samples.

Results

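RNA-Seq counts of 10 tubulin genes were followed in ED1SQ4 cells, a murine lung cancer line obtained from a lung tumor of cyclin E transgenic mice. The set holds the alpha tubulin genes *Tuba1a*, *Tuba1b* and *Tuba1c*, the beta tubulin genes *Tubb2a*, *Tubb2b*, *Tubb3*, *Tubb4b*, *Tubb5* and *Tubb6*, and the gamma tubulin gene *Tubg1*. Members were the rows of the deposited count table that carry these symbols, and all 10 were found among 55450 rows. The table holds 23 rows with a tubulin gene name in all.

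Cells received vehicle (DMSO) or CYC065 at 0.5 μM for 72 hours. CYC065, or fadraciclib, inhibits CDK2 and, more weakly, CDK9. After either treatment, cells were stained with a DNA dye and sorted into diploid (2N) and polyploid (4N) populations. Libraries from unsorted cells complete the set of 6 conditions. All of them come from this cell line. After either treatment, a 4N gate also takes in diploid cells that have copied their DNA and not yet divided. Each condition has 3 columns in the table, whose labels carry a single library number per condition, and over genes with whole counts these columns differed by no more than sampling noise (chi-square per degree of freedom from 0.991 to 1.02). For the genes whose reads RSEM had divided, which leaves fractions, it was 4.35 to 7.6, and over all genes 1.62 to 2.24. The columns were therefore summed and counted as 1 library per condition, although the sample titles call them replicates. No test between conditions is possible, and the 95% intervals given below cover counting error only, without the spread between cultures. They can be too narrow even for that, since the highest chi-square per degree of freedom over a member's own columns in any condition was between 1.90 and 7.26, and for *Tuba1c* it was 1.92 to 3.78 in all 6 conditions. Summed libraries held from 54750203 to 62795507 counts.

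Microtubules are polymers of alpha and beta tubulin, which pair head to tail before they assemble, and they build the mitotic spindle. Gamma tubulin sits in a ring complex at the centrosome, from which new microtubules grow. Several genes encode each class, and their proteins differ chiefly at the carboxy-terminal tail. *Tuba1b*, *Tuba1c*, *Tubb4b* and *Tubb5* are made in most dividing cells, *Tubb3* is best known as a neuronal form, and *Tuba1a*, *Tubb2a* and *Tubb2b* are abundant in the nervous system.

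The coding sequences of several members are so alike that reads cannot always be placed, and this bears on the single-gene values of the alpha genes above all. The opening 30 coding bases from the GENCODE M21 transcripts show the likeness. The capitals mark the opening 12 bases, which in alpha and beta tubulin encode the start of the protein, the part that cells read when they adjust tubulin mRNA to the amount of free tubulin. *Tubb6* is not printed.
Tuba1a: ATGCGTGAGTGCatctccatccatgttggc
Tuba1b: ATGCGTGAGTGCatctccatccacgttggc
Tuba1c: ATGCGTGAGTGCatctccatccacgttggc
Tubb2a: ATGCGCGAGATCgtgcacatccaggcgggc
Tubb2b: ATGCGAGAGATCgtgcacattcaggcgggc
Tubb3: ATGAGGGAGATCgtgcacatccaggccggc
Tubb4b: ATGAGGGAGATCgtgcacctgcaggctggg
Tubb5: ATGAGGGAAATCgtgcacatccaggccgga
Tubg1: ATGCCGAGAGAAatcatcaccctacagttg
The 3 alpha genes were identical in the 12 capital bases, and the opening 30 bases of *Tuba1c* were the same as those of *Tuba1b*, while *Tuba1a* matched 29 of them. *Tubb2a* and *Tubb2b* each matched *Tubb5* at 9 of the 12 capital bases, and the bases that differ do not change the encoded amino acids. Over the whole coding sequence, *Tuba1a* and *Tuba1b* were identical at 98.3% of 1353 positions and *Tubb2a* and *Tubb2b* at 96.5% of 1335. Of all 50-base stretches of its transcript, *Tuba1b* shared 73.8% with another annotated gene, *Tuba1a* 72.9%, *Tuba1c* 61%, *Tubb4b* 50.9%, *Tubb2a* 49.6%, *Tubb2b* 39.3% and *Tubg1* 14.1%. *Tubb5* shared 0.115%, and *Tubb3* and *Tubb6* shared 0%. How RSEM divided reads among the 3 alpha genes, and between *Tubb2a* and *Tubb2b*, therefore makes their single values uncertain, whereas *Tubb3*, *Tubb5* and *Tubb6* are nearly free of such sharing.

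All members are protein-coding, and positions are given on mm10. The alpha genes lie close together on chromosome 15, *Tuba1b* at 98931425 to 98934565 and *Tuba1a* at 98949837 to 98953703 on the minus strand, and *Tuba1c* at 99029891 to 99038110 on the plus strand. *Tubb2a* (34074274 to 34078007) and *Tubb2b* (34126748 to 34130466) are neighbors on the minus strand of chromosome 13. *Tubb4b* is on chromosome 2 (25222160 to 25224702), *Tubb3* on chromosome 8 (123411424 to 123422015), *Tubb5* on chromosome 17 (35833921 to 35838306), *Tubb6* on chromosome 18 (67390717 to 67402749) and *Tubg1* on chromosome 11 (101119938 to 101126419). *Tubg1* has 11 exons and every other member has 4. *Gm20388*, an annotated gene that spans *Tubb3* on the same strand, had 2222 counts in vehicle and 3807 in CYC065 unsorted cells, and its transcripts share no 50-base stretch with *Tubb3*.

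Levels are counts per 1000000 counts of the library after TMM scaling over the 6 libraries (CPM). Divided by transcript length, the most abundant members were *Tuba1b* and *Tubb5* in all 3 vehicle conditions. In vehicle unsorted cells *Tuba1b* stood at 812 CPM per kilobase and *Tubb5* at 738, followed by *Tuba1a* at 518 and *Tuba1c* at 273. *Tubb3* was the lowest there at 15.0 CPM per kilobase, next to *Tubb2b* at 16.1. With CYC065 *Tubb5* led in each population, at 345 CPM per kilobase in unsorted, 380 in 2N and 468 in 4N cells, and *Tuba1b* stood at 167, 241 and 298.

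**Figure D1:**
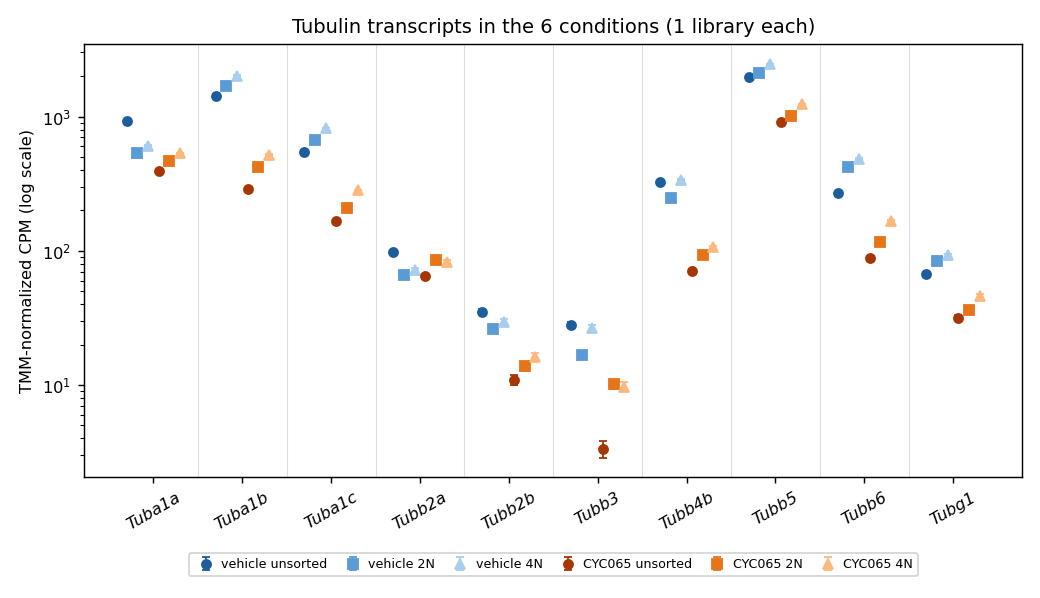
Level of each tubulin gene in CPM (log axis) in the 6 conditions, 1 library each, with bars for the 95% counting interval. For 8 of the 10 genes every vehicle point lies above every CYC065 point, and the exceptions are *Tuba1a*, whose vehicle 2N point (531 CPM) meets CYC065 4N (534 CPM), and *Tubb2a*, whose points lie between 65.4 and 98.1 CPM.

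The members together were lower with CYC065. The 3 alpha genes summed to 2890 CPM in vehicle unsorted, 2873 in vehicle 2N and 3430 in vehicle 4N cells, against 850, 1094 and 1335 CPM with CYC065. The 6 beta genes summed to 2710, 2880 and 3413 CPM with vehicle and to 1151, 1326 and 1620 CPM with CYC065. As log2 fold changes, the alpha sum differed by -1.77 (95% interval -1.78 to -1.75, CYC065 over vehicle) in unsorted, -1.39 (-1.41 to -1.38) in 2N and -1.36 (-1.37 to -1.35) in 4N cells. The beta sum gave -1.24 (-1.25 to -1.22), -1.12 (-1.13 to -1.11) and -1.08 (-1.09 to -1.06). These sums keep reads divided within a class together, and adding every other row with a Tuba or Tubb name changed the alpha values to -1.75, -1.36 and -1.34. The median over all genes counted was -0.07, -0.07 and -0.03. For 8 members every CYC065 library lay below every vehicle library, as it did for 32.1% of all genes.

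A log2 fold change beyond 1 in the lower direction was found for 9 of the 10 members in unsorted cells, where 13.9% of all genes passed it. In 2N cells 6 members passed, against 13.3% of all genes, and in 4N cells 6 passed, against 11.4%. None was higher by that much in any population, where 11.7%, 14.9% and 14.1% of all genes were. At a limit of 0.5, all 10 members were lower in unsorted cells (29.8% of all genes), 8 in 2N (29.9%) and 8 in 4N cells (27.2%), and none was higher, where 23.6%, 26.5% and 26.7% of all genes were. The median of the members was -1.66 in unsorted, -1.14 in 2N and -1.24 in 4N cells. Members close to the limit of 1 were *Tubb5* (-0.99) and *Tubg1* (-1.01, interval -1.07 to -0.94) in 4N and *Tubb2b* (-0.93) in 2N cells, and other scalings gave 5 to 7 members in 4N and 5 to 6 in 2N cells. Microtubule genes were not alone in this. Of 6 genes of the G1/S transition all were lower past log2 1 in each population, led by *Mcm5* (-2.39) and *Cdc6* (-2.14) in unsorted cells and by *Mcm5* and *Mcm2* in 2N (-1.94 and -1.77) and 4N cells (-1.45 and -1.69). Of 7 mitotic genes, 7, 7 and 3 were lower past log2 1 in unsorted, 2N and 4N cells, with medians of -1.61, -1.55 and -0.90. They were led by *Cdc20* (-1.91) and *Plk1* (-1.85) in unsorted, *Top2a* (-1.99) and *Mki67* (-1.57) in 2N and *Plk1* (-1.14) and *Cdk1* (-1.09) in 4N cells. Their summed level went from 2299 to 773 CPM in unsorted, from 2152 to 659 in 2N and from 3195 to 1674 in 4N cells. Whether fewer cycling cells or less tubulin mRNA per cell lies behind the lower tubulin values cannot be told apart in bulk RNA, and the part of the mitotic genes was not tested.

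**Figure D2:**
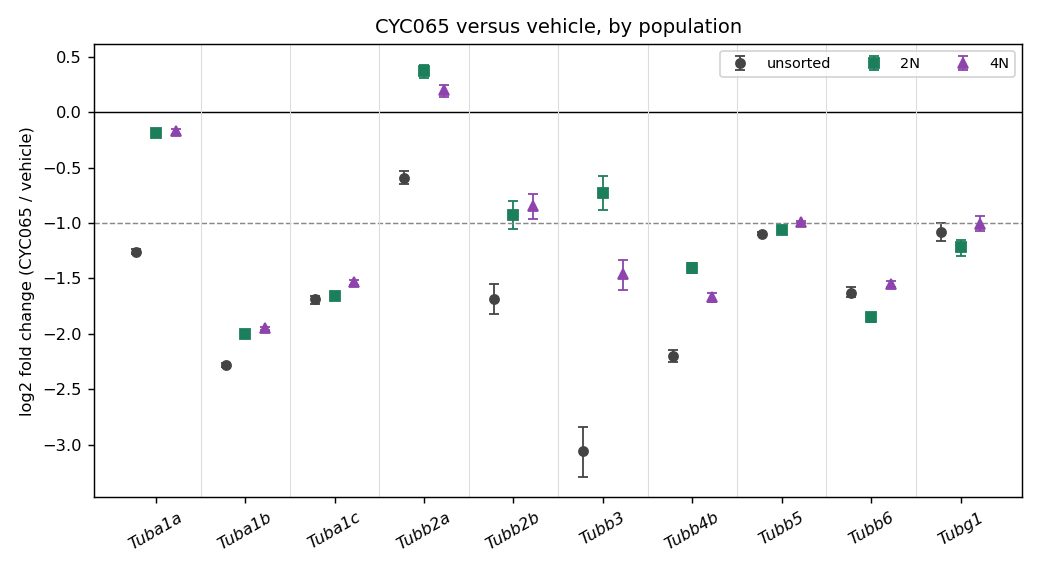
Log2 fold change of each tubulin gene, CYC065 over vehicle, in unsorted, 2N and 4N cells, with bars for the 95% counting interval and a dashed line at -1. *Tubb2a* alone lies above 0, in 2N and 4N cells, and the unsorted points of *Tuba1a* and *Tubb3* stand far below their sorted points.

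Among the alpha genes, *Tuba1b* and *Tuba1c* had the larger differences, and both are made in most dividing cells. *Tuba1b* stood at 1416 CPM in vehicle unsorted, 1678 in vehicle 2N and 2012 in vehicle 4N cells, and at 291, 420 and 519 CPM with CYC065. Its log2 fold change was -2.28 (-2.30 to -2.26) in unsorted, -2.00 (-2.02 to -1.98) in 2N and -1.95 (-1.97 to -1.94) in 4N cells, which left 20.6%, 25.0% and 25.8% of the vehicle level. *Tuba1c*, a close copy, stood at 540, 664 and 815 CPM with vehicle and at 167, 210 and 282 CPM with CYC065. Its log2 fold changes were -1.69, -1.66 and -1.53. Within each treatment 4N was highest and unsorted lowest for both. Among the 3 columns of CYC065 unsorted cells *Tuba1b* ran from 282 to 303 CPM, more than counting noise (chi-square per degree of freedom 7.26), so its counting interval is too narrow there.

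*Tuba1a*, which encodes the alpha tubulin of developing neurons, did not follow them in sorted cells. It stood at 934 CPM in vehicle unsorted cells and at 391 CPM in CYC065 unsorted cells, a log2 fold change of -1.26 (-1.28 to -1.23). In 2N cells it was 531 CPM with vehicle and 464 with CYC065 (-0.19, interval -0.22 to -0.17), and in 4N cells 602 and 534 CPM (-0.17, interval -0.20 to -0.15). The CYC065 4N level and the vehicle 2N level could not be separated by their intervals. Scaling by library size alone brought these differences to -0.06 and -0.03. The vehicle unsorted library was the highest of the 6, and the ratio of the highest to the lowest CPM over the 6 libraries was 2.39, compared with 6.90 for *Tuba1b*.

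The make-up of the alpha class differed accordingly. *Tuba1b* made up 49.0% of alpha counts in vehicle unsorted, 58.4% in vehicle 2N and 58.7% in vehicle 4N cells, and 34.3%, 38.4% and 38.9% with CYC065. *Tuba1a* went from 32.3%, 18.5% and 17.6% with vehicle to 46.0%, 42.4% and 40.0% with CYC065. Each of these shares has a 95% Clopper-Pearson interval within 0.5 percentage points on either side. There were 3.16 counts of *Tuba1b* for each count of *Tuba1a* in vehicle 2N (3.12 to 3.21) and 3.34 in vehicle 4N cells (3.30 to 3.38), and 0.906 (0.890 to 0.922) and 0.972 (0.958 to 0.987) with CYC065. Since the 2 genes share reads, the sizes of these shares depend on how RSEM divided them.

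**Figure D3:**
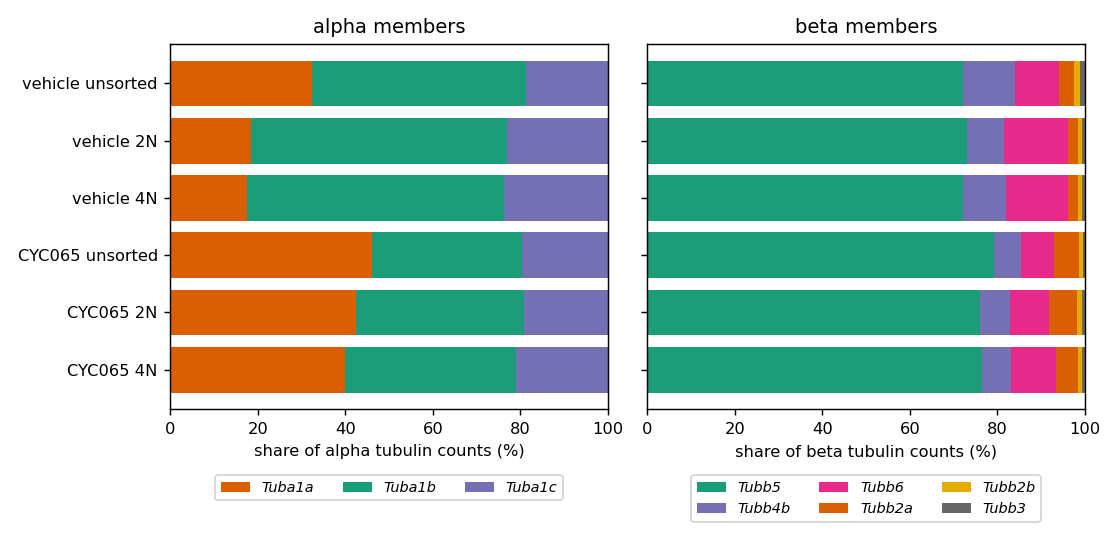
Share of each gene in the counts of the 3 alpha members (left) and the 6 beta members (right), in percent, for each condition. *Tuba1a* takes between 40.0% and 46.0% of the alpha counts with CYC065 and between 17.6% and 32.3% with vehicle, while *Tubb5* keeps between 72.1% and 79.3% of the beta counts throughout.

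*Tubb5*, the main beta tubulin of these cells, was lower with CYC065 by close to the same amount in each population. It stood at 1955, 2103 and 2463 CPM with vehicle in unsorted, 2N and 4N cells and at 913, 1008 and 1239 CPM with CYC065. Its log2 fold changes were -1.10 (-1.11 to -1.08), -1.06 (-1.08 to -1.05) and -0.99, which left 46.7%, 47.9% and 50.3% of the vehicle level. Its share of the beta counts was 72.1% to 73.0% with vehicle and 76.0% to 79.3% with CYC065.

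*Tubb4b* and *Tubb6* were lower by more than *Tubb5*. *Tubb4b*, a beta tubulin of most tissues and of cilia, stood at 323, 246 and 337 CPM with vehicle and at 70.5, 92.8 and 106 CPM with CYC065. Its log2 fold changes were -2.20 (-2.25 to -2.15), -1.41 (-1.45 to -1.36) and -1.67 (-1.71 to -1.63). *Tubb6*, a broadly made beta form, stood at 271, 423 and 485 CPM with vehicle and at 87.7, 117 and 166 CPM with CYC065. Its log2 fold changes were -1.63 (-1.67 to -1.58), -1.85 (-1.89 to -1.82) and -1.55 (-1.58 to -1.52). Neither gene had a CYC065 library that reached any vehicle library.

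*Tubb3*, at low counts, showed the widest range. It stood at 28.0 CPM in vehicle unsorted, 16.8 in vehicle 2N and 26.8 in vehicle 4N cells, and at 3.34, 10.1 and 9.72 CPM with CYC065. The log2 fold change was -3.06 (-3.29 to -2.84) in unsorted cells, from 1602 counts to 184, the lowest among the members. In 2N cells it was -0.73 (-0.88 to -0.58) and in 4N cells -1.46 (-1.60 to -1.33). The intervals of vehicle unsorted and vehicle 4N cells overlapped, as did those of CYC065 2N and 4N cells. Neuronal markers other than *Syn1* were almost absent. Of 6 genes, *Rbfox3* and *Dcx* were at 0 in most libraries, *Syn1* alone exceeded 1 CPM, and the 6 together summed to 4.34 to 7.50 CPM.

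The neighbors *Tubb2a* and *Tubb2b* differed from each other. *Tubb2a* stood at 98.1 CPM in vehicle unsorted and 65.4 in CYC065 unsorted cells (log2 fold change -0.59, interval -0.65 to -0.53). In 2N cells it was 65.7 CPM with vehicle and 84.7 with CYC065 (0.37, interval 0.31 to 0.43), and in 4N cells 72.3 and 82.8 CPM (0.20, interval 0.14 to 0.25). It was thus the only member with a higher level after CYC065 in sorted cells. The intervals of CYC065 2N and 4N cells overlapped, as did those of vehicle 2N and CYC065 unsorted cells. *Tubb2b* stood at 35.1, 26.2 and 29.5 CPM with vehicle and at 10.9, 13.8 and 16.3 CPM with CYC065, with log2 fold changes of -1.69 (-1.82 to -1.55), -0.93 (-1.05 to -0.80) and -0.85 (-0.96 to -0.74). There were between 0.358 and 0.408 counts of *Tubb2b* per count of *Tubb2a* with vehicle and between 0.163 and 0.197 with CYC065. *Tubb2a* made up 2.12% to 3.62% of beta counts with vehicle and 5.11% to 6.39% with CYC065.

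*Tubg1*, which encodes the gamma tubulin that seeds microtubules, stood at 67.2, 84.6 and 92.6 CPM with vehicle and at 31.8, 36.2 and 46.1 CPM with CYC065. Its log2 fold changes were -1.08, -1.22 (-1.30 to -1.15) and -1.01 (-1.07 to -0.94). In vehicle and CYC065 cells alike, 4N was highest and unsorted lowest, as for *Tuba1b*, *Tuba1c*, *Tubb5* and *Tubb6*.

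The comparison of 4N with 2N cells was made in each treatment, since the study set out to find what separates polyploid from diploid cells under CDK2 inhibition. The alpha and beta sums differed by less here than between treatments, whereas for *Tuba1a* the 4N over 2N differences (0.18 with vehicle, 0.20 with CYC065) were about as large as its treatment differences in sorted cells. With vehicle all 10 members were higher in 4N cells, with a median log2 fold change of 0.21 where the median over all genes was 0.01. With CYC065 8 of the 10 were higher, with a median of 0.27 against 0.02. Over all genes 48.2% were below 0 with vehicle and 46.3% with CYC065. None passed log2 1 in either direction, where 1.00% of all genes were higher and 1.67% lower with vehicle and 1.58% and 1.99% with CYC065. A log2 fold change over 0.5 was found for *Tubb3* with vehicle, where 4.86% of all genes passed, and for *Tubb6* with CYC065, where 5.81% did. No member was lower by over 0.5, as 6.39% and 6.64% of all genes were.

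The alpha sum was higher in 4N cells by 0.26 (0.25 to 0.27) with vehicle and 0.29 (0.27 to 0.30) with CYC065, and the beta sum by 0.24 (0.24 to 0.25) and 0.29 (0.28 to 0.30). *Tubb3* was higher in 4N cells by 0.68 (0.56 to 0.80) with vehicle, while with CYC065 the difference was -0.06 (-0.22 to 0.10) and its interval held 0. Its single columns gave 0.48 to 0.92 with vehicle, wider than the counting interval. *Tubb4b* was higher by 0.45 (0.42 to 0.48) and 0.19 (0.14 to 0.24). *Tubb6* went the other way, with 0.20 (0.17 to 0.22) with vehicle and 0.51 (0.46 to 0.55) with CYC065. *Tubb2a* was at 0.14 (0.07 to 0.20) and -0.03 (-0.09 to 0.02). The mitotic genes, which mark cells in or near division, were higher in 4N cells as well, 7 of 7, with a median of 0.82 with vehicle, led by *Plk1* (0.93) and *Cdc20* (0.87), and 1.27 with CYC065, led by *Ccnb1* (1.51) and *Top2a* (1.47). Their part in the tubulin differences was not tested.

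**Figure D4:**
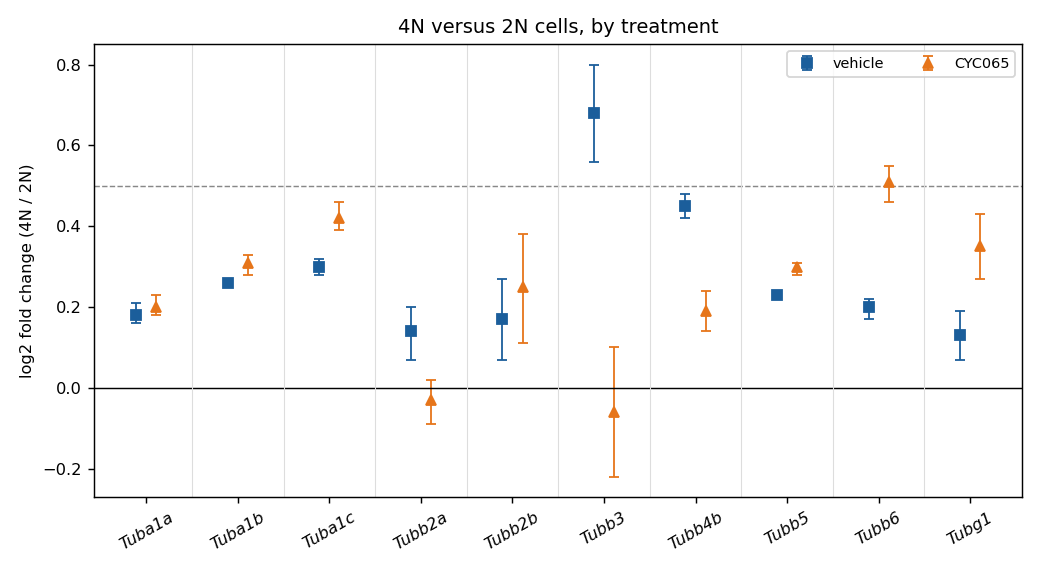
Log2 fold change of each tubulin gene, 4N over 2N cells, with vehicle and with CYC065, with bars for the 95% counting interval and a dashed line at 0.5. All vehicle points lie above 0, and the CYC065 points of *Tubb2a* and *Tubb3* lie just below it with intervals that cross it.

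Set against each other, the 4N/2N ratios of the treatments (CYC065 minus vehicle, log2) differed most for *Tubb3*, at -0.74 (-0.94 to -0.54). This was the only member past 0.5 in the lower direction, where 9.29% of all genes were, and none was past it in the higher direction, where 10.3% were. The single columns of *Tubb3* ran from -0.97 to -0.45, wider than its counting interval, and -0.45 does not pass 0.5. Its columns in vehicle 2N cells varied more than counting noise (chi-square per degree of freedom 4.32). *Tubb6* followed at 0.31 (0.26 to 0.36), *Tubb4b* at -0.26 (-0.32 to -0.20) and *Tubg1* at 0.22 (0.12 to 0.31). The sums differed by 0.03 (0.01 to 0.05) for alpha and 0.04 (0.03 to 0.06) for beta, and both turned negative under DESeq2 size factors.

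Unsorted cells lay outside the range of their sorted fractions for 9 of the 10 members with vehicle and for all 10 with CYC065, and so they did for 85.3% and 81.6% of all genes. With CYC065, all 10 members were lower in unsorted cells than in both 2N and 4N cells, as were 43.3% of all genes, while 38.4% were above both. For *Tubb3* (-1.54 from the nearer fraction) and *Tuba1b* (-0.53) the gap was over 0.5, as it was for 7.69% of all genes. With vehicle, 4 members lay above both fractions (40.5% of all genes) and 5 below both (44.8%), with *Tubb4b* between them. *Tuba1a* lay 0.63 above the nearer fraction, where 13.9% of all genes were above by over 0.5, and *Tubb2a* (0.44), *Tubb2b* (0.25) and *Tubb3* (0.06) were above it by less. *Tubb6* was at -0.64 from the nearer fraction, where 9.55% of all genes were below by over 0.5. Population and handling cannot be told apart here, since dye staining and sorting belong to the sorted cells.

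Other genes that make, fold or use tubulin were counted from lists. Of 10 further tubulin genes, *Tuba4a* reached 70.4 CPM in vehicle unsorted cells and the other 9 stayed at or below 10.4 CPM in every library. Only 4 or 5 of them had enough counts for a treatment comparison. *Tuba4a* was at -1.19 (-1.27 to -1.11) in unsorted, 0.11 (0.03 to 0.20) in 2N and -0.35 (-0.44 to -0.27) in 4N cells, CYC065 over vehicle. *Tubb4a*, with 20 to 100 counts a library, was higher with CYC065 in each population, by 0.92 (0.43 to 1.42), 1.99 and 0.64 (0.04 to 1.27). *Tubd1*, the delta tubulin of centrioles, was at -1.17, -1.46 and -1.32 in unsorted, 2N and 4N cells. *Tube1*, the epsilon tubulin, was higher in 4N than 2N cells with CYC065 by 0.91 (0.70 to 1.11), and at -0.10 (-0.27 to 0.07) with vehicle. *Tuba8*, at 25 and 48 counts with CYC065, was at 0.72 (0.00 to 1.49) there and at 0.69 (0.00 to 1.41) with vehicle.

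The chaperonin that folds new tubulin and the prefoldin that hands it over were represented by 14 genes, of which 13 were below 0 in unsorted and 14 in each sorted population. Over all genes 53.8%, 53.4% and 51.7% were below 0 in unsorted, 2N and 4N cells. Beyond log2 1 in the lower direction were 3, 5 and 3 of the 14, against 13.9%, 13.3% and 11.4% of all genes, and the median was -0.77, -0.87 and -0.85. *Cct6a*, a chaperonin subunit, went from 374 to 133 CPM in unsorted cells (-1.49), and was at -1.53 in 2N and -1.38 in 4N cells. *Cct8*, another subunit, was at -1.06, -1.16 and -1.33, and the prefoldin gene *Pfdn6* at -0.97, -1.17 and -0.85. Of 7 folding cofactors, 5 were below 0 in each population, with medians of -0.20, -0.23 and -0.28, and 1, 3 and 3 were lower past 1, among them *Tbcc*, a late cofactor in the pairing of alpha with beta tubulin, at -1.87, -1.63 and -2.08. The cofactor gene *Tbcb* was at -0.97, -1.11 and -1.08 and *Arl2*, a small GTPase that works with the cofactors, at -0.62, -1.17 and -1.21. *Tbcel*, a tubulin-destabilizing relative of a folding cofactor, was higher with CYC065 in each population. In unsorted, 2N and 4N cells it stood at 10.6, 7.63 and 8.37 CPM with vehicle. With CYC065 it stood at 19.2, 17.5 and 18.1 CPM.

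Of 11 genes of the gamma tubulin ring complex and its anchors, which hold *Tubg1* at the centrosome, 2, 3 and 0 were lower past log2 1, against 13.9%, 13.3% and 11.4% of all genes, and none was higher past it. Their median was -0.56, -0.84 and -0.51. *Pcnt*, the pericentrin scaffold, was at -1.36 (-1.45 to -1.27) in unsorted and -1.24 (-1.33 to -1.15) in 2N cells. *Tubgcp4*, a ring subunit, was at -1.03 in unsorted cells, and *Tubgcp6*, another, at -1.09 in 2N and -0.72 in 4N cells. *Mzt2*, a small ring component, was higher with CYC065 in each population, by 0.44 (0.26 to 0.62), 0.84 (0.66 to 1.04) and 0.83 (0.67 to 1.00). In 4N against 2N cells all 11 were higher with CYC065, with a median of 0.31, and 8 with vehicle, with a median of 0.03. Over all genes 46.3% were below 0 with CYC065 and 48.2% with vehicle, with medians of 0.02 and 0.01. *Pcnt* had the largest of these differences with CYC065, 0.82 (0.73 to 0.91), followed by *Nedd1*, a ring anchor, at 0.43. With vehicle *Mzt1* and *Mzt2* had the largest, both 0.27.

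None of the 3 genes of tubulin mRNA autoregulation differed past log2 1. *Ttc5*, which recognizes nascent tubulin chains and starts the decay of their mRNA, was higher with CYC065 by 0.58 (0.44 to 0.73) in unsorted, 0.70 (0.55 to 0.85) in 2N and 0.80 (0.66 to 0.94) in 4N cells. *Scaper* and *Cnot11*, which act after it, were below 0 in each population, but the *Scaper* interval in 2N cells held 0. In unsorted, 2N and 4N cells *Cnot11* was at -0.48, -0.29 and -0.30, and *Scaper* at -0.27, -0.10 (-0.29 to 0.09) and -0.44. Of 14 tubulin-modifying enzymes, 2, 2 and 1 were lower past log2 1 and none was higher past it, shares near those of all genes in the lower direction. Among them was *Agbl5*, which removes glutamate from tubulin tails, at -1.28 in unsorted, -1.15 in 2N and -1.10 in 4N cells. *Ttll4*, which adds glutamate, was at -0.90, -1.31 and -0.74, *Ttll7*, of the same family, at -1.05, 0.03 and -0.25, and *Sirt2*, a tubulin deacetylase, at 0.81, 0.91 and 0.87. Of 20 genes counted of microtubule binding and severing, 5, 4 and 3 were lower past log2 1, against 13.9%, 13.3% and 11.4% of all genes, and 1, 2 and 1 higher, against 11.7%, 14.9% and 14.1%. *Camsap3*, which binds microtubule minus ends, had the largest difference in sorted cells and was higher with CYC065 by 1.95 (1.58 to 2.34), 2.65 (2.08 to 3.31) and 2.62 (2.12 to 3.20), from 74, 27 and 34 counts with vehicle. *Fignl1*, of a family of severing enzymes, was lower, at -2.16, -1.73 and -1.19. *Map1b*, a microtubule-associated protein of neurons, was at -1.41, -1.40 and -1.23, and *Mapre3*, which binds plus ends, at 0.93, 1.10 and 0.98. *Tpx2* and *Tacc3*, both spindle proteins, were higher in 4N than 2N cells with CYC065, by 1.22 (1.18 to 1.26) and 1.14 (1.06 to 1.23). With vehicle they were higher in 4N cells as well, by 0.62 (0.59 to 0.65) and 0.69 (0.63 to 0.74).

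Genes whose centred log2 CPM came closest to a member over the 6 libraries were sought among 8990 genes. For *Tuba1b* these were *Rfc5* (root mean square distance 0.06), *Gm14150* (0.07) and *Nol7* (0.08). *Gm14150* shares 48.1% of the 50-base stretches of *Tuba1b*. For *Tubb5* they were *Polr3b* (0.04), *Det1* (0.04) and *Anp32e* (0.05), and for *Tubg1* they were *Abce1* (0.05), *Tdg* (0.06) and *Taf12* (0.06). Among the members themselves, *Tubb5* and *Tubg1* were the closest pair (0.08), followed by *Tuba1c* and *Tubb6* (0.12), and *Tubb2a* and *Tuba1b* were the farthest apart (1.09).

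Promoters are shown for *Tubb4b*, *Tubb5*, *Tuba1c* and *Tubb2a*. Each is the 250 bases upstream of the RefSeq start (GRCm38.p6), where that start lies within 5 bases of the GENCODE M21 start. Capitals mark matches on either strand to CCAAT (the CCAAT box), TTTGAA (the core of the cell cycle homology region), GGGCGG (the GC box) and TATAAA (the TATA box), and no matches overlap.
Tubb4b, chr2:25224703-25224952, minus strand: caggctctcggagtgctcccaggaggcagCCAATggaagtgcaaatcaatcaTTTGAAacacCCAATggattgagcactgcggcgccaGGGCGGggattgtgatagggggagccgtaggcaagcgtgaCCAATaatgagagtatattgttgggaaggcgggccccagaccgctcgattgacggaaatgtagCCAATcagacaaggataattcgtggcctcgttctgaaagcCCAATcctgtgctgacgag
Tubb5, chr17:35838302-35838551, minus strand: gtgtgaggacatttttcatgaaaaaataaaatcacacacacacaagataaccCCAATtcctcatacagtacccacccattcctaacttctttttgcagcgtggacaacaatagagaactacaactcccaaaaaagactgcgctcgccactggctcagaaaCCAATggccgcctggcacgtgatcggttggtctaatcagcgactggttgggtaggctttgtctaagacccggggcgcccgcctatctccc
Tuba1c, chr15:99029641-99029890, plus strand: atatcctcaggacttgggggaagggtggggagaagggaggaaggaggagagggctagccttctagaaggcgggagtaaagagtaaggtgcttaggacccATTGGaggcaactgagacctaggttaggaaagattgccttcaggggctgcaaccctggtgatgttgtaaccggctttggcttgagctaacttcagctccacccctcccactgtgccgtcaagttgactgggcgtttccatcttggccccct
Tubb2a, chr13:34078009-34078258, minus strand: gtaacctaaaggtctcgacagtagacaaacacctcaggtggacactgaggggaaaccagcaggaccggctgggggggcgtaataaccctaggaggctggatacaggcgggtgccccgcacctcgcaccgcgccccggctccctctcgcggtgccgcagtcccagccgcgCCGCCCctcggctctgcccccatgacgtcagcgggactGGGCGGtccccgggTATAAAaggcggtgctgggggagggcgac
*Tubb4b* held 5 CCAAT matches, 1 TTTGAA and 1 GGGCGG. *Tubb5* held 2 and *Tuba1c* 1 CCAAT match, with none of the others. *Tubb2a* held no CCAAT match, but 2 GGGCGG and 1 TATAAA. The other 3 promoters matched have RefSeq starts 129 to 202 bases downstream of the GENCODE start and are not printed. That stretch of each window is therefore not upstream of the GENCODE start. In these windows *Tuba1b* held no CCAAT match and 2 GGGCGG, *Tuba1a* held 1 of each, and *Tubb3* held 1 CCAAT and 2 GGGCGG. The matches were not tested against the treatment differences. Of 32851 promoters of this length, 33.8% held CCAAT, 16% TTTGAA, 32.7% GGGCGG and 12.4% TATAAA, and 2.79% held at least 3 CCAAT matches. A match describes these letters and does not show that a factor binds there.

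The cell type label was checked with markers. The mesenchymal markers *Vim*, *Col1a1* and *Pdgfrb* summed to 6075 to 8562 CPM, while 5 epithelial markers summed to 0.436 to 1.28 CPM and 4 lung lineage markers to at most 0.0739 CPM, with *Nkx2-1* and *Scgb1a1* at 0 in every library. The 4 leukocyte and endothelial markers summed to 4.57 to 5.49 CPM with vehicle and 11.5 to 24.7 CPM with CYC065, mostly from *Cd68*, with *Ptprc* at 0 in 5 of the 6 libraries. Their part in the tubulin values was not tested.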

How the data were processed

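Per the labels and the study's methods, ribosomal RNA was depleted from total RNA, stranded libraries were sequenced as paired ends, and the authors used Cutadapt 1.18 for trimming, STAR 2.7.0f for alignment to mm10 and RSEM to count GENCODE M21 genes. The submitters' processing notes name RSEM 1.3.1. The deposited values are RSEM expected counts, without normalization. Column totals ran from 18246493 to 20933929. The 3 columns of a condition were summed. TMM factors (edgeR 4.0.16, R 4.3.3) were computed over the 6 summed libraries, with a prior count of 0.5. Fold changes between 2 libraries were given 95% Clopper-Pearson intervals (SciPy 1.17.1). Levels were given exact Poisson intervals, and differences of 4N/2N ratios a normal approximation from the counts. Genes with at least 30 summed counts in a compared condition formed the background. Sharing was counted in 50-base stretches of the longest transcript in the consensus coding set. Promoters came from RefSeq, and 7 were matched outside chromosome 18, of which 4 are printed. All members are named. From each list the 2 genes of largest absolute log2 fold change in a comparison described for it were named, and *Gm20388*, *Mapre3*, single marker genes and further comparisons of a named gene were added after their values were seen. The 3 genes closest to *Tuba1b*, *Tubb5* and *Tubg1* needed a mean of 10 CPM and no tubulin name. Members and lists were chosen with earlier results of these data known. The calculations were tested on simulated data. Alternatives were other scalings, a prior count of 2, other filters, leaving out columns, and column fits with edgeR or DESeq2 1.42.0, which compare libraries and not conditions.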

Additional observations from a re-analysis of the deposited data

Results flagged for a closer look

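*Tubb2a* had opposite signs in different populations. With CYC065 its level was lower in unsorted cells and higher in 2N cells, with log2 fold changes of -0.59 and 0.37, and the same held against 4N cells, at -0.59 and 0.20. The changes were 0.95 and 0.78 apart on the log2 scale. All 3 columns of each condition gave these signs, but they were counted as parts of 1 library, and the difference between populations was not tested. *Tubb2a* also shares reads with *Tubb2b*, which was lower with CYC065 in each population. How far the signs depend on the division of reads between these genes by RSEM was not tested.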

How the results depend on the processing

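Every member kept the sign of its CYC065 versus vehicle and vehicle 4N versus 2N differences under all alternatives. Library size scaling alone shifted the median of all genes by 0.14 in 2N and 0.14 in 4N cells for CYC065 versus vehicle, and gave -1.81, -1.26 and -1.22 for the alpha sum in unsorted, 2N and 4N cells, -1.28, -0.98 and -0.93 for the beta sum, and 1 member higher past 0.5 in 2N cells (*Tubb2a*). DESeq2 size factors gave -1.71, -1.37 and -1.38 for alpha and -1.18, -1.09 and -1.10 for beta, 0.29 and 0.27 for 4N versus 2N cells with vehicle, 0.27 for both sums with CYC065, and differences of ratios of -0.02 for alpha, -0.0031 for beta and -0.003 for *Tuba1b*, which reversed. With sorted and unsorted libraries scaled apart, the alpha sums were -1.75, -1.42 and -1.39 and the beta sums -1.22, -1.15 and -1.10. With all rows of the name, alpha was -1.75, -1.36 and -1.34, and 0.27 for 4N versus 2N cells with CYC065. With 5 rows that share reads added, a choice made after seeing the data, it was -1.41 in 2N cells and 0.25 for 4N versus 2N cells with vehicle.

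*Tubb6* was past 0.5 in 4N versus 2N cells with CYC065 by little. That count of 1 became 0 with DESeq2 size factors, without replicate 3 (range 0 to 1 on leaving out columns), and in the DESeq2 and edgeR column fits, the latter with and without the replicate number as a block (0 members with the block). The DESeq2 column fit put *Tuba1b* at -0.0036 for the difference of ratios, also reversed. The shared replicate number was not taken to pair cultures, since the columns were counted as parts of 1 library, and the block changed no other count.

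Background shares depend on the filter. For log2 1 in the lower direction they ranged from 14.0% to 18.4% in unsorted cells and from 11.5% to 14.1% in 4N cells under the other filters. For 4N versus 2N cells, log2 0.5 in the higher direction, 4.86% with vehicle became 17.0% at a minimum of 1 count and 3.09% at 100 counts, and 5.81% with CYC065 became 18.2% and 3.99%. Counts of 184 to 144401 per member make counting error small. It covers neither the spread between cultures, with 1 library per condition, nor the division of shared reads by RSEM.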
